A study of Mus musculus with 12 samples.

Results

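The SLAM family receptors are 7 genes of the mouse, Slamf1, Slamf6, Slamf7, Cd84, Ly9, Cd48 and Cd244, described here in primary B lymphocytes exposed to an agonist of STING. They were taken by name from the 54532 genes of the count table. 6 names matched exactly, and Cd244 is listed under its current symbol, Cd244a, which RefSeq pairs with the older name. All 7 passed the filter on low counts, which kept 14473 genes. RNA of 12 libraries was sequenced in 4 groups of 3. Tmem173-/- cGAMP and wild type cGAMP B cells had received 3'3'-cGAMP, a bacterial cyclic dinucleotide, for 12 h. Tmem173-/- control and wild type control B cells served as their counterparts. STING, the protein made from Tmem173, is the sensor that binds such dinucleotides. All groups were B cells sorted from mice and seeded in plates. The labels give neither the dose of cGAMP nor what the controls received, and give a time only for the cGAMP libraries. They also leave out the strain, sex and age of the mice and how the Tmem173 allele was made. B cells came from 3 mice of each genotype for 6 libraries of each, so the libraries of a genotype cannot all be from different mice, and p-values measure the spread between libraries.

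SLAM receptors are immunoglobulin-type proteins of the surface of blood cells. Most bind a copy of themselves on a neighbouring cell. Cd48 is the exception with no cytoplasmic tail: it is held by a lipid anchor and is the ligand of Cd244. The tails of the other members carry tyrosine motifs that recruit the small adaptors SAP (Sh2d1a) and EAT-2 (Sh2d1b1), which bring in kinases such as Fyn, or else phosphatases such as SHP-1 (Ptpn6) and SHIP-1 (Inpp5d). On B cells they take part in contacts with T cells, among them those of the germinal centre.

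After cGAMP, wild type B cells held less Cd84, Slamf1, Cd48 and Cd244a RNA and more Slamf7 RNA than their controls. The values of Ly9 and Slamf6 did not pass the test in the main fit, which did not pair libraries. With same-numbered libraries paired, Ly9 passed. Cd84 fell by 61.2% by the fitted fold, and Slamf7 rose 1.32-fold. In wild type cells 47.8% of all tested genes passed the test. In Tmem173-/- B cells none of the 7 members passed the test after cGAMP, where 0% of all tested genes did. The test throughout was the two-sided quasi-likelihood F test of edgeR over all 14473 genes, with Benjamini-Hochberg adjusted p under 0.05 as the threshold. Levels of a gene across libraries are CPM, counts scaled to a common library size with TMM factors, and log2 fold changes have their standard error (SE).

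Bases upstream of Cd84 and Slamf7, the member with the greatest fall and the one that rose, are printed here because these genes lie on the same stretch of chromosome 1 and moved in opposite directions. Each is the 250 bases before the gene start of RefSeq on GRCm38.p6, read on the gene's own strand. Cd84 is on the plus strand at chr1:171839447-171839696 and Slamf7 on the minus strand at chr1:171649000-171649249, where the RefSeq start lies inside the gene span deposited for Slamf7.
Cd84: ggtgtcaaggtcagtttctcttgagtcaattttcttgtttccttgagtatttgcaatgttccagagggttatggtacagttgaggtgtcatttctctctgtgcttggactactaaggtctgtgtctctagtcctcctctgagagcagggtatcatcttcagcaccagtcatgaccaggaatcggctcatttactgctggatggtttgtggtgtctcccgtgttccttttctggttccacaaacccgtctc
Slamf7: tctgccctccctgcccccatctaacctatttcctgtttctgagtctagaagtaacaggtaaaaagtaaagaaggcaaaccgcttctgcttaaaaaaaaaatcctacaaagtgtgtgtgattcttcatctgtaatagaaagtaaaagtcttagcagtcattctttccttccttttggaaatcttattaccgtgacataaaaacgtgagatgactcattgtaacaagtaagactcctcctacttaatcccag
Capitals would mark a match to any of 3 motifs searched on both strands and counted separately, and neither sequence has one. The motifs were GAAA repeated after a gap of 2 free bases, like the response element of interferon-induced factors (ISRE), TTCNNNGAA, like the element bound by STAT dimers (GAS), and GGGA and TTTCC parted by 1 free base, like the NF-kB element. Of 32851 promoter windows of this length, 2.98% hold the first, 7.02% the second and 0.356% the third. RefSeq windows were found for 6 of the 7 members, and 0 of these 6 hold any of the 3 motifs. This says only that these letters are not in these windows. Ly9 was not in the table.

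Library totals lay between 26490593 and 31417833 counts. Tmem173 itself did not separate the control groups of the genotypes as RNA (log2 fold change -0.04, adjusted p = 0.935, edgeR). It had 80.2, 94.7 and 103.0 CPM in libraries labelled Tmem173-/- control, against 91.2, 102 and 92.7 CPM in wild type controls. This RNA level gives no check of the genotype labels. The cGAMP responses did differ by label, with 47.8% of all tested genes called in wild type and 0% in Tmem173-/- cells. How the allele acts was not tested. The B cell markers Cd79a, Cd79b and Ms4a1 were present in every library. The wild type replicate 1 libraries stood apart in both treatments by transcripts of other cells. Summed T cell markers reached 30.3 CPM in the wild type cGAMP group and 13.7 CPM in the wild type control group, against at most 4.93 CPM in the Tmem173-/- cGAMP and 4.20 CPM in the Tmem173-/- control group. Wild type responses of the called members, Slamf6 and Sh2d1b1 are given with and without both wild type replicate 1 libraries. Most other values are given only with them. In bulk samples such as these, fewer cells of a type and less RNA per cell cannot be told apart.

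Of the members that bind themselves, Cd84 had the greatest difference. Cd84 had 46.3, 52.6 and 54.2 CPM in wild type cGAMP libraries, against 119, 132 and 143 CPM in wild type controls. In Tmem173-/- B cells it had 121, 130.1 and 130.2 CPM after cGAMP, against 125, 127 and 117 CPM in controls. All 3 wild type cGAMP libraries lay below the other 9, which overlapped. The fold change in wild type cells was -1.37 ± 0.09 (log2, SE; 95% interval -1.55 to -1.18; edgeR adjusted p = 8.51e-09). It was 0.04 in Tmem173-/- cells (95% interval -0.14 to 0.23; adjusted p = 1). The responses differed by 1.41 ± 0.12 (log2, Tmem173-/- minus wild type; adjusted p = 8.73e-07). Without both wild type replicate 1 libraries the wild type value was -1.37 (edgeR adjusted p = 2.90e-07). Macrophages also carry Cd84, and the summed monocyte and macrophage markers moved with it, at 10.8 to 19.4 CPM in wild type cGAMP libraries, against 36.4 to 46.7 CPM in wild type controls; the range was 46.0 to 61.9 CPM in Tmem173-/- cGAMP and 48.8 to 58.4 CPM in Tmem173-/- control libraries. Of 6 tested markers of that list, 2 fell, Adgre1 and Ms4a7, beside 25.4% of all tested genes called lower. Ms4a7 was listed at 0 counts in all wild type cGAMP libraries, and Mertk had 1 count over the 12 libraries together. The sum followed Adgre1, with 4.41 ± 0.793 CPM in wild type cGAMP libraries and 30.8 ± 7.48 CPM in wild type controls (SD, n = 3). The uncalled Lyz2, Cd14 and Cd68 averaged more in wild type cGAMP libraries, at 5.79, 0.530 and 4.90 CPM, than in wild type controls, at 3.23, 0.141 and 4.70 CPM. Their part in the Cd84 result was not tested.

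Slamf1 (SLAM, CD150), the founding receptor of the family, was a low transcript that fell in the same direction. Slamf1 had 3.71, 2.38 and 2.99 CPM in wild type cGAMP libraries, against 7.77, 6.65 and 5.76 CPM in wild type controls. In Tmem173-/- libraries it had 6.33, 7.69 and 7.0 CPM after cGAMP, against 5.30, 6.99 and 6.68 CPM without. The wild type cGAMP libraries were the lowest 3 of the 12, and the other groups overlapped. The wild type log2 fold change was -1.15 ± 0.19 (SE; 95% interval -1.56 to -0.74; edgeR adjusted p = 0.000136). The Tmem173-/- value was 0.15 (95% interval -0.24 to 0.54), and the difference between the responses was 1.30 ± 0.27 (adjusted p = 0.00158). Without both wild type replicate 1 libraries Slamf1 was at -1.21 (edgeR adjusted p = 0.000741). On the log2(FPKM + 1) scale, which compresses low values, its wild type value was -0.61.

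Slamf7 (CRACC, CD319), a receptor also found on plasma cells and NK cells, was the member that rose. Slamf7 had 142, 128 and 147 CPM in wild type cGAMP libraries, against 103, 105 and 109 CPM in wild type controls. In Tmem173-/- libraries it had 100.2, 107 and 100.2 CPM after cGAMP, against 94.9, 102 and 98.9 CPM in controls. The lowest wild type cGAMP library was above every library of the other groups. The wild type log2 fold change was 0.40 ± 0.08 (SE; 95% interval 0.24 to 0.56; edgeR adjusted p = 0.000447), and 0.06 in Tmem173-/- cells (95% interval -0.11 to 0.22). The difference between the responses, -0.34 ± 0.11, passed the threshold (edgeR adjusted p = 0.0234) but lost the call in 9 of 21 alternatives, where its adjusted p was at most 0.101. That highest value came without both wild type replicate 1 libraries, where the difference was -0.30 and the wild type response was 0.36 (edgeR adjusted p = 0.0115). It was also lost without Tmem173-/- cGAMP replicate 1 or 3, Tmem173-/- control replicate 2 or 3, wild type cGAMP replicate 1 or 3, or wild type control replicate 1, and with no filter on low counts (adjusted p = 0.0986). Summed plasma cell markers were 686 to 800.5 CPM in wild type cGAMP libraries and 767 to 819 CPM in wild type controls. Of 5 tested plasma cell markers, 3 were lower (Sdc1, Prdm1 and Xbp1) and 0 higher. Of all tested genes, 25.4% were called lower and 22.4% higher. Summed NK cell markers were 0.890 to 5.97 CPM in wild type cGAMP libraries and 1.48 to 1.92 CPM in wild type controls. The NK sum was 1.05 to 1.45 CPM in Tmem173-/- cGAMP and 0.974 to 1.63 CPM in Tmem173-/- control libraries; the part of either list in the Slamf7 result was not tested. Of the Slamf7 exon bases, 423 (9.24%) are shared with an antisense gene, Gm37787, which held 226 counts over the 12 libraries. The strandedness of the counting is not stated, so these reads cannot be told apart.

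Ly9 (CD229) and Slamf6 (Ly108) are a pair of self-binding receptors of B and T cells. Neither had a called difference in the 5 contrasts of the main fit, which did not pair libraries. Ly9 had 130.0, 122 and 144 CPM in wild type cGAMP libraries, against 150.3, 142 and 155 CPM in wild type controls. In Tmem173-/- libraries Ly9 had 150.1, 145 and 144 CPM after cGAMP, against 136, 145 and 148 CPM in controls. The groups overlapped, since the highest wild type cGAMP library was above the lowest wild type control. The wild type log2 value of Ly9 was -0.17 ± 0.08 (SE; 95% interval -0.34 to -0.01; edgeR adjusted p = 0.0818). With wild type cGAMP replicate 3 left out it passed the threshold, at -0.25 and an edgeR adjusted p of 0.0321. Ly9 also passed in an edgeR fit that pairs same-numbered libraries (the replicate block), at -0.18 and an adjusted p of 0.0294. Slamf6 had 39.9, 46.2 and 37.4 CPM in wild type cGAMP libraries, against 36.1, 44.6 and 39.3 CPM in wild type controls. In Tmem173-/- libraries Slamf6 had 40.5, 49.8 and 41.4 CPM after cGAMP, against 41.5, 42.2 and 45.7 CPM in controls. All 4 groups overlapped in Slamf6, and its wild type log2 value was 0.04 ± 0.11 (SE; edgeR adjusted p = 0.781), with a 95% interval of -0.19 to 0.27.

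The remaining members are a ligand and its receptor. Cd48, the lipid-anchored ligand, had 52.9, 59.9 and 61.7 CPM in wild type cGAMP libraries, against 68.5, 80.7 and 89.5 CPM in wild type controls. In Tmem173-/- libraries Cd48 had 73.7, 81.3 and 78.0 CPM after cGAMP, against 73.6, 76.3 and 69.2 CPM in controls. Every wild type cGAMP library lay below the other 9. The wild type log2 fold change of Cd48 was -0.45 ± 0.10 (SE; 95% interval -0.66 to -0.25; edgeR adjusted p = 0.00121), that of Tmem173-/- cells was 0.09 (95% interval -0.12 to 0.29), and the difference between them was 0.54 ± 0.14 (adjusted p = 0.00699). Without both wild type replicate 1 libraries the wild type value was -0.49 (edgeR adjusted p = 0.00179).

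Cd244a, the receptor of Cd48 and best known on NK cells, had so few reads that its counts set the precision. Cd244a had 26, 30 and 17 counts in wild type cGAMP libraries, against 43, 55 and 36 in wild type controls. Cd244a had 74, 64 and 57 counts in Tmem173-/- cGAMP libraries, against 64, 71 and 65 in Tmem173-/- controls. The wild type cGAMP libraries lay below the wild type controls, which in turn lay below all 6 Tmem173-/- libraries in CPM. The wild type log2 fold change was -0.87 ± 0.29 (SE; 95% interval -1.49 to -0.25; edgeR adjusted p = 0.0224). This call was lost in 6 of 22 alternatives, which included leaving out wild type cGAMP replicate 3 (-0.68 by edgeR, with an adjusted p = 0.0901), wild type control replicate 2 (-0.70, adjusted p = 0.0890) or both wild type replicate 1 libraries (-0.97, adjusted p = 0.0568). The fold change in Tmem173-/- cells was -0.01 (95% interval -0.58 to 0.56), and the difference between the responses did not pass (0.86 ± 0.40, adjusted p = 0.113). The gene spans Ly9 on the other strand, with 0 exon bases in common.

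**Figure D1:**
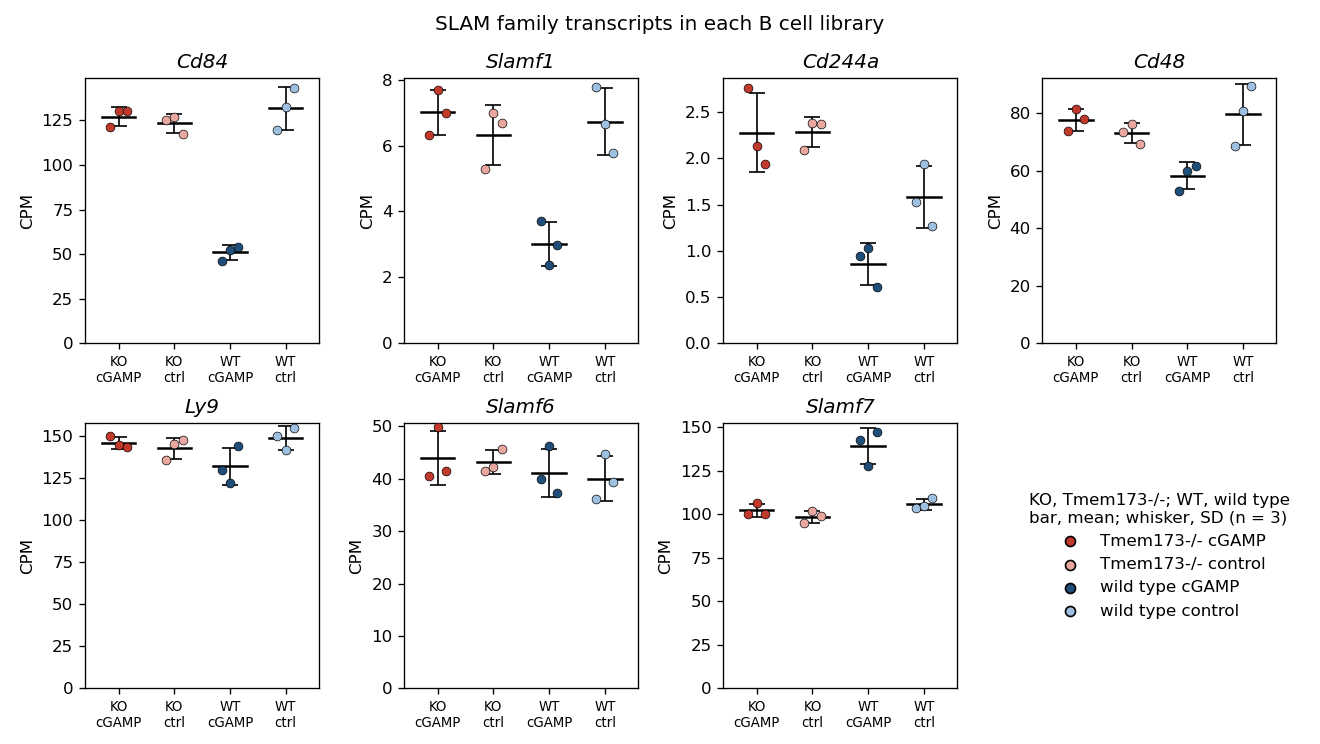
CPM (counts scaled with TMM, linear axis from 0) of the 7 members in each library, by group, with the mean as a bar and the SD as a whisker (n = 3). The 3 wild type cGAMP libraries lie below all others for Cd84, Slamf1, Cd48 and Cd244a, above all others for Slamf7, and among them for Slamf6.

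Counted over the family, 5 of 7 members were called in wild type cells, 1 higher and 4 lower, where 47.8% of all tested genes were called (22.4% higher and 25.4% lower). The larger direction among all genes turned with the scaling, at 3238 higher and 3683 lower with TMM, 3688 and 3114 with library totals alone, and 3768 and 3079 on the log2(FPKM + 1) scale. The median log2 fold change was -0.45 over the 7 members and -0.00 over all tested genes. The groups did not overlap for 5 of 7 members, against 54.4% of all tested genes. With this share of all genes called, the number of members called is not by itself a result about the family. In Tmem173-/- cells 0 of 7 members and 0% of all genes were called by edgeR, with 0 members and 203 genes at an unadjusted p under 0.05. The groups overlapped for all 7 members, where 6.64% of all tested genes had no overlap. DESeq2 and limma-voom also called 0 genes there, with 267 and 235 at an unadjusted p under 0.05. The responses of the genotypes differed for 4 of 7 members, 3 with a positive and 1 with a negative difference (Tmem173-/- minus wild type), where 31.6% of all tested genes were called (17.5% positive and 14.1% negative). The 2532 positive and 2037 negative differences behind these shares became 2036 and 2494 on the log2(FPKM + 1) scale.

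**Figure D2:**
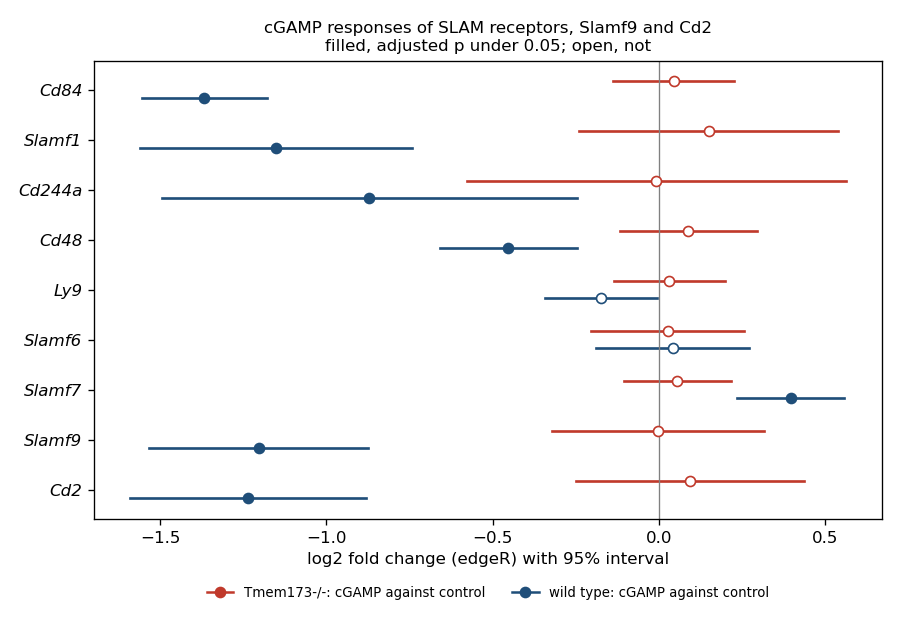
Log2 fold changes (edgeR, cGAMP against control) with 95% intervals for the 7 members, Slamf9 and Cd2, in Tmem173-/- B cells (upper point of each pair) and wild type B cells (lower point). All Tmem173-/- intervals include 0, while the wild type values run between -1.37 for Cd84 and 0.40 for Slamf7; filled points have an adjusted p under 0.05.

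Between the genotypes, no member passed the test among the control libraries. Of the 7 members 0 were called, with log2 values (Tmem173-/- control against wild type control) between -0.12 for Cd48 and 0.53 for Cd244a. Of all tested genes, 0% were called, 921 at an unadjusted p under 0.05 but 0 of the members. DESeq2 called 1 gene, and edgeR with no filter on low counts called 151. The groups did not overlap for 2 members, Cd244a and Slamf7, where 9.09% of all tested genes had no overlap. Under agonist, 4 members were higher and 1 lower in Tmem173-/- cGAMP than in wild type cGAMP libraries, where 48.3% of all tested genes were called (24.9% higher and 23.5% lower), and 5 members had no overlap, against 58.9% of all tested genes. This contrast shares its wild type cGAMP libraries with the wild type response, so the values are given only side by side. They were 1.32 for Cd84, 1.39 for Cd244a (edgeR adjusted p = 0.00082), 1.21 for Slamf1, 0.42 for Cd48 and -0.44 for Slamf7 on the log2 scale.

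The order of the members per length was compared on the deposited FPKM, which divides by gene length and library total. In wild type cGAMP libraries Slamf7 was the most abundant member at 79.5 ± 5.63 FPKM (SD, n = 3), followed by Ly9 at 62.3 ± 5.00, Cd48 at 56.3 ± 4.31, Cd84 at 26.8 ± 2.08 and Slamf6 at 21.1 ± 2.40 FPKM. In wild type controls Cd48 averaged 73.2 ± 7.38, Ly9 67.0 ± 1.92, Cd84 65.9 ± 4.09, Slamf7 57.5 ± 1.55 and Slamf6 19.6 ± 2.65 FPKM (SD, n = 3). Slamf1 and Cd244a were the lowest members in both groups, at 0.868 ± 0.194 and 0.363 ± 0.0966 FPKM in wild type cGAMP libraries and at 1.85 ± 0.348 and 0.638 ± 0.163 FPKM in wild type controls. Slamf7 was thus the first after cGAMP and the fourth among the controls. In the cGAMP group Ly9 and Cd48 overlapped and the other neighbours did not, whereas in the controls Cd48, Ly9 and Cd84 overlapped. Slamf7 made up 32.1% of the summed FPKM of the 7 members in wild type cGAMP libraries and 20.2% in wild type controls, and Cd84 10.8% in wild type cGAMP libraries and 23.0% in wild type controls. In Tmem173-/- cGAMP libraries Slamf7 had 19.8% and Cd84 22.7% of the sum, and the members kept the order of the wild type controls in both Tmem173-/- groups.

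**Figure D3:**
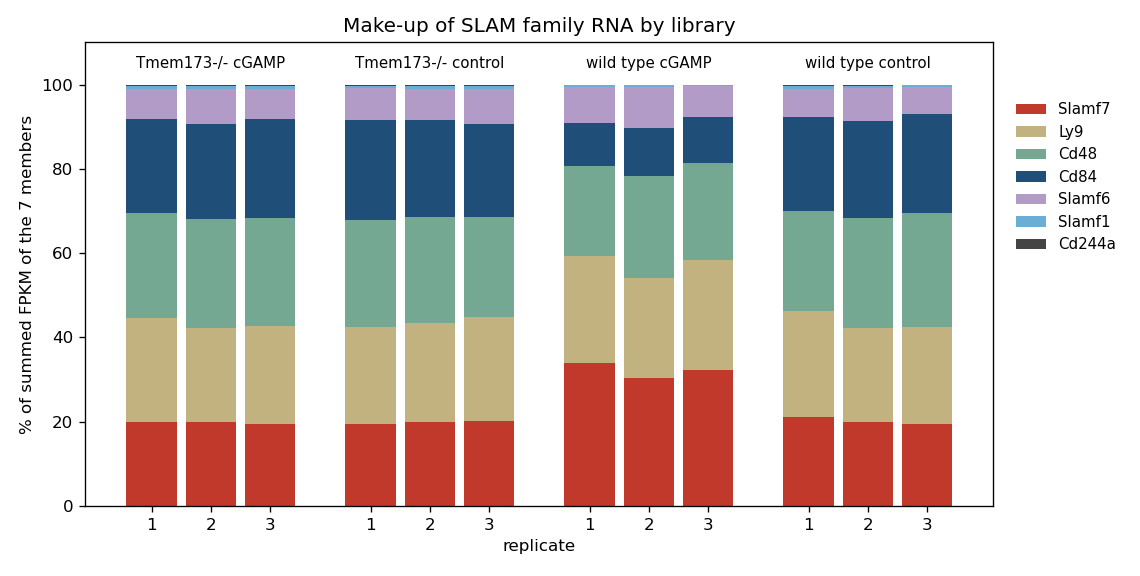
Share of each member in the summed deposited FPKM of the 7 members (percent, linear axis), 1 bar per library. The Slamf7 share is larger and the Cd84 share smaller in the 3 wild type cGAMP libraries than in the other 9.

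Relatives of the family outside its 7 members included Slamf9 and Cd2, which were tested, and Slamf8, which had too few counts. Slamf9, a receptor of the same family with a short tail, had 12.3, 14.6 and 12.8 CPM in wild type cGAMP libraries, against 32.3, 25.1 and 34.2 CPM in wild type controls. Its log2 fold change was -1.20 ± 0.16 (SE; edgeR adjusted p = 1.21e-05) for wild type and -0.00 for Tmem173-/- cells. Cd2, which in mice binds Cd48, had 14.5, 21.1 and 13.9 CPM in wild type cGAMP libraries, against 31.9, 43.4 and 41.3 CPM in wild type controls (-1.24 ± 0.17 log2, SE; edgeR adjusted p = 2.34e-05); its Tmem173-/- value was 0.09. The 3 libraries of each wild type group did not overlap in either gene. Both differences between the responses were called, at 1.20 ± 0.22 for Slamf9 and 1.33 ± 0.23 for Cd2 (edgeR adjusted p = 0.000621 and 0.000554). Slamf8 had 9 counts in the 3 wild type cGAMP libraries together and 1 in the wild type controls, a ratio of 9.47 with a 95% counting interval of 1.31 to 415 that covers counting error only. In Tmem173-/- libraries Slamf8 had 2 counts after cGAMP and 1 in controls, a ratio of 2.02 with a counting interval of 0.105 to 119. This interval includes the wild type ratio. The upstream window of Slamf8 holds 1 ISRE-like match. Such a match is in 2.98% of all promoter windows, and a link to these counts was not tested.

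Of the adaptors and signalling partners, 17 of 20 listed genes had enough counts to be tested. In wild type cells 1 was higher, 11 were lower and 5 did not pass, with a median log2 fold change of -0.40, beside the 47.8% of all genes called. In Tmem173-/- cells 0 of 17 were called, beside 0% of all tested genes. The adaptors themselves were close to the limit of detection. Sh2d1a (SAP) had 3, 0 and 4 counts in wild type cGAMP libraries, 8, 0 and 0 in wild type controls and 0 in all 6 Tmem173-/- libraries. Sh2d1b1 (EAT-2) had 24, 6 and 6 counts in wild type cGAMP libraries, against 25, 19 and 13 in wild type controls (-0.64 ± 0.59 log2, SE; edgeR adjusted p = 0.393). Without both wild type replicate 1 libraries this value was -1.41 (edgeR adjusted p = 0.127). Sh2d1b2 (ERT) had 4 counts, all in wild type cGAMP replicate 1. T cells express Sh2d1a, and its counts in wild type replicate 1 stand beside the T cell transcripts of those libraries. Wild type cGAMP replicate 3, which is not one of those libraries, had 4 counts of Sh2d1a. The part of T cells was not tested.

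The partners named next were well above the detection limit, unlike Prkcq, a kinase of the list with too few counts to be tested (at most 2.51 CPM, in wild type cGAMP replicate 1). Fyn, the kinase that SAP recruits, averaged 98.8 ± 5.01 CPM in wild type cGAMP libraries and 182 ± 4.44 CPM in wild type controls (SD, n = 3; log2 fold change -0.88 ± 0.08, SE; edgeR adjusted p = 1.61e-07). The Src-family kinase Lyn (-0.87 ± 0.08) and Csk (-0.81 ± 0.08), a kinase that restrains that family, were the next in size. The phosphatases gave unlike values. Ptpn6 averaged 461 ± 15.7 CPM in wild type cGAMP libraries and 781 ± 32.7 CPM in wild type controls (-0.76 ± 0.09 log2, SE; edgeR adjusted p = 7.01e-06), and Inpp5d, the inositol phosphatase SHIP-1, 234 ± 18.5 CPM in wild type cGAMP libraries and 398 ± 24.8 CPM in wild type controls (-0.76 ± 0.10; adjusted p = 9.64e-06). The related phosphatase Ptpn11 (SHP-2) was at 0.02 ± 0.09 on the log2 scale (edgeR adjusted p = 0.847; 95% interval -0.16 to 0.21). Dok1, a docking protein for negative regulators, was the partner that rose, with 90.8 ± 2.28 CPM in wild type cGAMP libraries and 34.1 ± 2.82 CPM in wild type controls (SD, n = 3; 1.41 ± 0.09 log2, SE; edgeR adjusted p = 1.19e-08). The responses of the genotypes differed for 9 of the 17, 8 with a positive and 1 with a negative difference (Tmem173-/- minus wild type), beside 31.6% of all tested genes (17.5% positive and 14.1% negative).

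**Figure D4:**
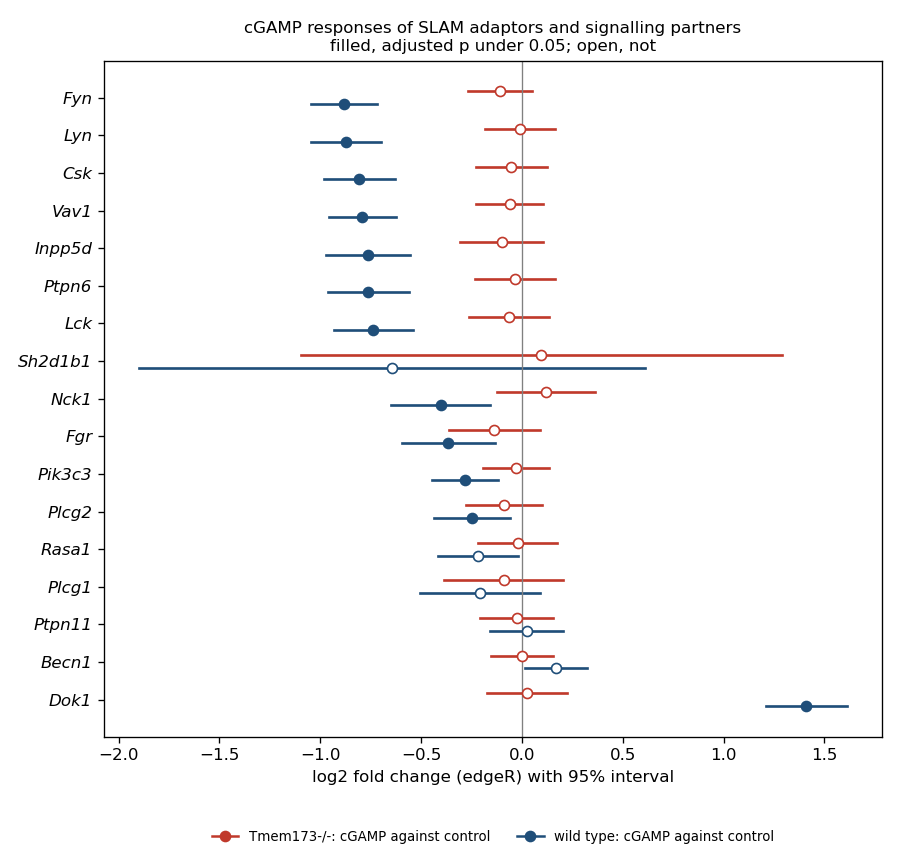
Log2 fold changes (edgeR, cGAMP against control) with 95% intervals for the 17 tested adaptors and signalling partners, sorted by the wild type value, in Tmem173-/- (upper point) and wild type B cells (lower point); filled points have an adjusted p under 0.05. Wild type values run between -0.88 for Fyn and 1.41 for Dok1, and all Tmem173-/- intervals include 0.

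The 7 members lie in a row on mouse chromosome 1 within 394 kb, between base 171559193, the start of Cd244a, and base 171953170, the end of Slamf6, in the deposited coordinates (GRCm38). In this order they are Cd244a, Ly9, Slamf7, Cd48, Slamf1, Cd84 and Slamf6. Cd84 spans bases 171839697 to 171890718 of the plus strand and Slamf7 bases 171632403 to 171653035 of the minus strand. The interval holds 12 other annotated genes, of which 10 had a count and 5 were tested in wild type cells. Of these 5, 2 fell and 3 did not pass, a share near the 47.8% of all tested genes called (25.4% lower). Gm10521, which lies between Cd84 and Slamf6, had 4.18 ± 0.841 CPM in wild type cGAMP libraries and 8.83 ± 1.62 CPM in wild type controls (SD, n = 3; -1.08 ± 0.21 log2, SE; edgeR adjusted p = 0.000574). Gm37065, annotated as antisense at the start of Slamf6 with 0 exon bases in common, was at -1.36 ± 0.46 (log2, SE; edgeR adjusted p = 0.0223). Neighbours along the row did not move as one in the main fit. Slamf7, which rose, lies between Ly9, which did not pass, and Cd48, which fell. Slamf6, which did not pass, follows Cd84, the member with the greatest fall.

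**Figure D5:**
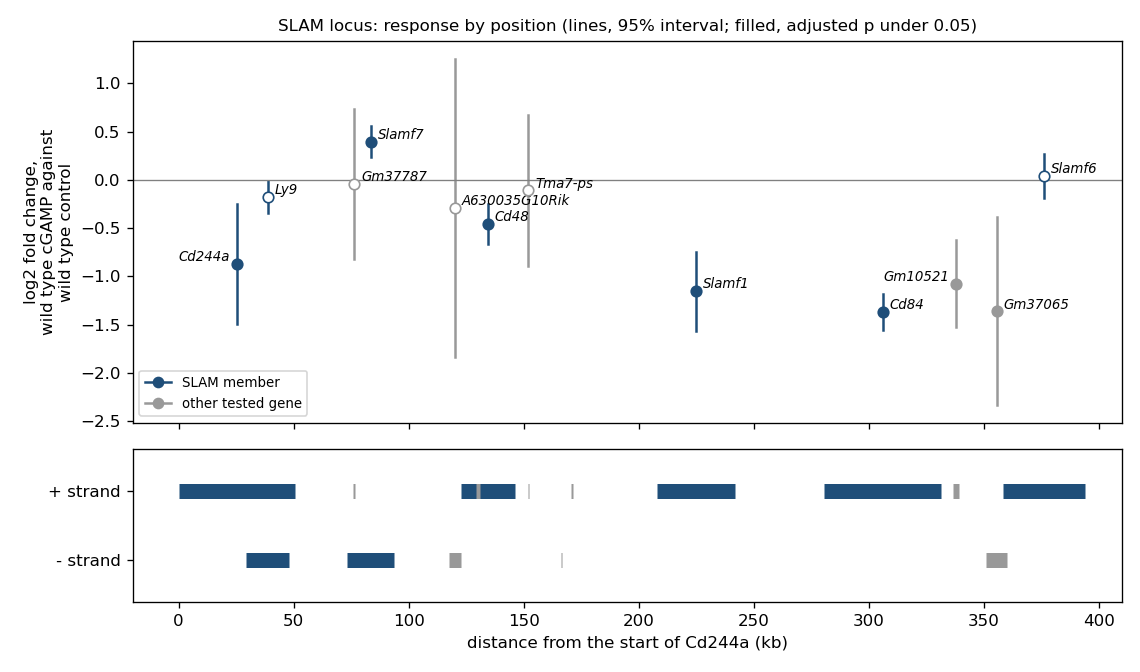
Log2 fold change (edgeR, wild type cGAMP against wild type control) with its 95% interval for the tested genes of the SLAM locus, against distance from the start of Cd244a in kb (upper panel), with the gene spans by strand (lower panel). The uncalled members Ly9 and Slamf6 lie beside called ones, and the one member above 0 with a filled point is Slamf7.

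Genes outside the family with the most similar profile were sought over the 12 libraries by Pearson's r of log2 CPM, among 9485 genes with a mean of at least 5 CPM, as a description. Rab30 and Rnf130 were among the closest to Cd84 (r = 0.997 and 0.995), and Arid1b, Ubn1 and Ptpn7 to Slamf1 (0.978, 0.976 and 0.975). Slamf7 was closest to Ube2q2, Pold3 and Zc3hav1 (0.974, 0.973 and 0.973), and Cd48 to Ikbkg, Ube2d2a and Rnf13 (0.984, 0.975 and 0.968). Ly9 was closest to Cdk17, Kyat3 and Smyd3 (0.912, 0.894 and 0.890), and Slamf6 to Prickle3, Gm16675 and Btbd8 (0.862, 0.812 and 0.806). Cd244a was under the minimum. For the members with a called response, r is set largely by the 3 wild type cGAMP libraries, which stand apart from the other 9.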

How the data were processed

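RNA of 12 B cell libraries was measured by poly-A selected sequencing (NEBNext Ultra). Per the submitters' processing notes, fastp, STAR and featureCounts and the builds GRCm38 and mm10 were used; versions, annotation release and strandedness are not given in the sources used here. The authors deposited whole-number counts per gene, between 26490593 and 31417833 per library, and FPKM values made from the same counts. A second deposited count table held the same values. Groups came from the genotype and treatment labels.

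Counts were tested in R 4.3.3 with edgeR 4.0.16 (filterByExpr by group, TMM, robust quasi-likelihood fit, 4 group means, 5 contrasts, two-sided F test, Benjamini-Hochberg over 14473 genes within a contrast, threshold 0.05). The script was tested on simulated counts. SE is the log2 fold change over the square root of F, and intervals are 95%. Alternatives used limma 3.58.1, DESeq2 1.42.0, other scaling, no filter, pseudocounts of 1 and 0.1 on FPKM, a replicate block, and fits without single libraries or both wild type replicate 1 libraries.

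The 7 members and all gene lists were chosen with earlier results of these data known. Named genes were all members, Slamf8, Slamf9 and Cd2, the SH2D1 adaptors, Fyn, Ptpn6, Ptpn11, Inpp5d and the 3 greatest changes in each direction among partners and locus neighbours, Tmem173, and the 3 most similar genes of each member with at least 5 CPM. Macrophage, plasma cell and other markers come from fixed lists. Some genes that these rules name are not reported here. Member coordinates were the same as in GENCODE for all 7. Upstream bases are from RefSeq on GRCm38.p6. Counting intervals cover counting error only, because amplified reads that carry no molecular tag may copy one another.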

Additional observations from a re-analysis of the deposited data

Results flagged for a closer look

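The cGAMP responses of the genotypes differed, by edgeR's test of the difference itself with adjusted p under 0.05, in the following genes (log2, Tmem173-/- minus wild type). Among the members the differences were 1.41 for Cd84, 1.30 for Slamf1, 0.54 for Cd48 and -0.34 for Slamf7. Among the relatives they were 1.33 for Cd2 and 1.20 for Slamf9.

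Among the signalling partners the differences were 0.86 for Lyn, 0.77 for Fyn, 0.75 for Csk, 0.73 for Ptpn6, 0.73 for Vav1, 0.67 for Lck, 0.66 for Inpp5d and 0.52 for Nck1, and -1.39 for Dok1. In the SLAM locus they were 1.14 for Gm10521 and 1.93 for Gm37065. In each of these genes the Tmem173-/- response was not called, where 0% of all tested genes were called.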

How the results depend on the processing

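The numbers of members called in the 5 contrasts stayed within 1.5 times their value under every alternative run. The wild type log2 value ranged between -1.44 and -1.27 for Cd84, -1.33 and -0.61 for Slamf1, -0.56 and -0.37 for Cd48 and 0.35 and 0.47 for Slamf7 over 22 alternatives, with every call held. It ranged between -1.03 and -0.26 for Cd244a (edgeR or limma adjusted p between 0.0174 and 0.0901) and between -0.25 and -0.10 for Ly9 (0.0294 to 0.317). The difference between the responses of Slamf7 ranged between -0.42 and -0.29 (0.00589 to 0.101).

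Without the filter on low counts, 23 genes were called in the Tmem173-/- response and 151 between the control groups of the genotypes, against 0 each. Between the control groups of the genotypes DESeq2 called 1 gene, the fit without both wild type replicate 1 libraries 5, and leaving out 1 library 0 to 1; the cause was not tested. The sign changed only for values that did not pass the test. Without both wild type replicate 1 libraries the Slamf6 values were -0.0107 (wild type) and 0.0363 (difference) and Slamf1 was 0.0251 between control groups of the genotypes. The Tmem173-/- response of Slamf9 was 0.0003 with DESeq2 size factors, 0.0004 with DESeq2 and 0.0019 with only the compared groups.

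Over the fits that each leave out 1 library, the Tmem173-/- response ranged between -0.049 and 0.18 for Cd2, -0.166 and 0.0955 for Cd244a, -0.0021 and 0.0547 for Ly9, -0.0728 and 0.0812 for Slamf6 and -0.115 and 0.148 for Slamf9. The wild type response of Slamf6 ranged between -0.0528 and 0.121, the difference between its responses between -0.123 and 0.0784, and its value between the genotypes under cGAMP between -0.0107 and 0.186. Between the control groups of the genotypes Slamf1 ranged between -0.193 and 0.0268 and Slamf9 between -0.254 and 0.0006.

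Same-numbered libraries of a genotype correlated in their deviations by 0.0834 to 0.300, and different-numbered ones by -0.245 to 0.0506. Each library correlated best with its own number. The same-number values were not all over 0.1, so the main fit did not pair libraries. Whether same-numbered libraries share a mouse is not stated. With the replicate block, 7749 genes were called in the wild type response (6921 without), 5660 for the difference (4569 without) and 0 in the Tmem173-/- response, and Ly9 was called at -0.18 (adjusted p = 0.0294). Counts limit Cd244a, Slamf8 and the SH2D1 adaptors.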

Other observations

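The B cell marker list changed with the agonist beside the SLAM receptors. Its summed level was 3514 to 4282 CPM in wild type cGAMP libraries and 5054 to 6102 CPM in wild type controls. Of 8 markers, 6 fell in wild type cells, among them Cd79b (-1.31 ± 0.13 log2, SE), Blk (-1.13 ± 0.09) and Cd79a (-1.07 ± 0.11), which belong to the B cell receptor complex and its kinases, while Pax5, a lineage factor, rose (0.33 ± 0.12; edgeR adjusted p = 4.76e-07, 6.82e-08, 1.35e-06 and 0.0284 in this order). Of all tested genes, 25.4% were called lower and 22.4% higher in this contrast. In Tmem173-/- cells 0 of the 8 were called, beside 0% of all tested genes. Of the plasma cell markers, Sdc1, the surface proteoglycan CD138, had the greatest fall, with 19.3 ± 2.00 CPM in wild type cGAMP libraries and 70.5 ± 10.2 CPM in wild type controls (SD, n = 3; -1.87 ± 0.12 log2, SE; edgeR adjusted p = 6.04e-09).

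Of 4 tested dendritic cell markers, 2 rose in wild type cells, Zbtb46 (1.69 ± 0.16 log2, SE; edgeR adjusted p = 4.08e-07) and Flt3 (1.09 ± 0.15; adjusted p = 1.65e-05), beside 22.4% of all tested genes called higher. The other two tested markers did not pass and averaged less, Itgax at 0.979 CPM in wild type cGAMP libraries and 1.42 CPM in wild type controls, and Xcr1 at 0.250 CPM in wild type cGAMP libraries and 0.461 CPM in wild type controls. The list's sum was 36.6 to 44.8 CPM in wild type cGAMP libraries and 15.2 to 20.1 CPM in wild type controls. Neutrophil markers summed to 0.172 to 23.8 CPM in wild type cGAMP libraries and to at most 9.26 CPM in wild type controls, and none of the T cell, neutrophil, platelet and erythroid markers was called in wild type cells by edgeR.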
